A study of Homo sapiens with 4 samples.

Results

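Immediate early genes are the genes that cells switch on within minutes of serum, growth factors or stress, from factors already present and without new protein synthesis. The 10 genes described here are FOS, FOSB, JUN, JUNB, EGR1, ATF3, IER2, IER3, DUSP1 and KLF6. They were taken by gene symbol, and every probe set annotated to 1 of these symbols alone was used, 23 of the 54675 probe sets on the array. Of the 23 probe sets, 21 passed the filter on low signal, and these stand for 9 of the 10 genes among 12264 expressed genes. FOSB did not pass, since a gene counts as expressed when a probe set of it reached the middle of all mean signals or percentile 75 of an array. A gene is represented by its probe set with the highest mean. For the members the other probe sets are given beside it, and for genes outside the 10 where they disagree with it.

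All RNA was from T84, an established human line from a colorectal carcinoma whose cells polarise into an epithelium when grown on permeable filters. There were 4 groups with 1 array each, all from T84 cells seeded at 500000 per well on polycarbonate filters and transfected with 15 pmol of short RNA. In the 4-miRNA group, collected on day 5, the RNAs were miR-210, miR-33a, miR-451 and miR-338-3p. In the 2-miRNA group, also collected on day 5, they were miR-451 and miR-338-3p. The day 7 control and the day 5 control received a short RNA chosen to resemble human microRNAs as little as possible. Whether 15 pmol was the amount of each RNA or of the mixture is not stated. Every culture therefore went through a transfection, and no array shows untransfected cells. The medium was renewed on alternate days, and the labels do not say how long before collection that last happened.

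No group had a second array, so no test across samples was possible and no p-value is given. Before scaling, both miRNA arrays were brighter (trimmed means of 150.0 with 4 miRNAs and 147 with 2) than both controls (74.3 on day 7, 76.6 on day 5). Brightness and miRNA treatment therefore cannot be told apart. Signals below are scaled to a common trimmed mean of 500, and every log2 difference is of scaled signal plus 32. As an error, 2625 genes gave an SD for 1 probe set. This is the SD of the gap between 2 probe sets of a gene, divided by the square root of 2. It was 0.18 between the miRNA arrays, 0.27 between the controls and 0.58 between either miRNA array and the day 5 control. It leaves out variation between cultures. The ratio of 3′ to 5′ control probe sets, a measure of RNA integrity, was between 0.951 and 1.02 for GAPDH and between 1.97 and 2.33 for ACTB over the 4 arrays. All 8 colon epithelium markers looked up, CDX2 and VIL1 among them, were expressed. Of the markers of fibroblasts, leukocytes and endothelium, 2 of 6, 2 of 4 and 1 of 5 with a probe set were; COL3A1, DCN, PTPRC, CD14, VWF and CDH5 were not. The expressed leukocyte markers, CD3E and LYZ, summed to 649.7 with 4 miRNAs and 595 with 2 miRNAs, against 331 on day 7 and 235 on day 5. LYZ carried this, at 462 and 490 with 4 and 2 miRNAs, against 144 on day 7 and 111 on day 5, whereas CD3E was at 188 and 106 with 4 and 2 miRNAs, against 187 on day 7 and 123 on day 5. The fibroblast pair summed to 251 and 241 with 4 and 2 miRNAs, against 404 on day 7 and 383 on day 5, and the endothelial marker PECAM1 lay between 157 and 239. Their part in the results was not tested.

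The pathway runs from receptors of the epidermal growth factor family through the ERK kinases to transcription factors that sit on early gene promoters. The serum response factor SRF binds the CArG box together with ternary complex factors such as ELK1, and CREB and ATF proteins bind the cyclic AMP response element. FOS, FOSB, JUN, JUNB and ATF3 are leucine zipper proteins that pair into AP-1 and related dimers. EGR1 and KLF6 are zinc finger transcription factors. DUSP1 is a phosphatase that turns off MAP kinases, IER3 is a modulator of survival signalling, and IER2 is a nuclear protein of the same early response. In the intestine this response follows wounding, growth factors and contact with luminal stimuli.

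Stretches upstream of the start sites are shown because 7 members share a short run of letters there, the core of the cyclic AMP response element. They come from RefSeq promoters of GRCh38.p14, which held 9 of the 10 members, and run 5′ to 3′ on the gene's strand with matches in capitals. The window searched was the 250 bases before the start, on both strands, for 7 motifs, and the capitals mark the CArG box, TGACGTCA and its part TGACG. On the strand printed a match can also read CGTCA, and every TGACGTCA holds 2 overlapping matches to TGACG.
FOS, chr14:75278749-75278783, plus strand: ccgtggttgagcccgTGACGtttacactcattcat
FOSB, chr19:45467921-45467955, plus strand: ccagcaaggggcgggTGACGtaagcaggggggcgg
JUN, chr1:58784151-58784185, minus strand: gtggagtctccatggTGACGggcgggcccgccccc
JUNB, chr19:12791334-12791368, plus strand: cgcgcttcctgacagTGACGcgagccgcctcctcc
EGR1, chr5:138465329-138465432, plus strand: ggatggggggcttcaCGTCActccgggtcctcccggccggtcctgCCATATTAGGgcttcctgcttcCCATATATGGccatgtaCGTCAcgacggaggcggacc
DUSP1, chr5:172771287-172771382, minus strand: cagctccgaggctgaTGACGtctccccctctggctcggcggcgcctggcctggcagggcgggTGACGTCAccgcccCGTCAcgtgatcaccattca
IER2, chr19:13150256-13150290, plus strand: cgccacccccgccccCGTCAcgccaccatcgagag

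The CArG box is the letters CC, then 6 letters A or T, then GG. TGACG was found in 7 of the 9 members, against 21.2% of 35116 promoters of the same length. A member counted when any promoter of it held the letters, and ATF3 had several promoters. Counts of members and shares of promoters are therefore not quite the same measure. TGACGTCA was found in DUSP1 alone of the 9, against 1.65% of promoters. A CArG box was found in EGR1 alone of the 9, as 2 copies starting 105 and 83 bases before the start site (positions -105 and -83), against 1.16% of promoters. The AP-1 site TGACTCA was in none of the 9 members, against 4.2% of promoters. The TATA box TATAAA was in 5 of the 9 (FOS, FOSB, JUNB, ATF3 and DUSP1), against 10.7% of promoters. The ETS core CCGGAA was in FOSB and IER2, against 14.5%, and the EGR site GCGGGGGCG in KLF6, against 4.72%. A match describes letters and not a bound site, and a missing one says only that the letters are not in this window.

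The miRNAs are printed as mature RefSeq sequences of GRCh38.p14 with the seed, bases 2 to 8, in capitals, since the seed sets which messages a miRNA can pair with.
hsa-miR-338-3p: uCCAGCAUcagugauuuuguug
hsa-miR-33a-5p: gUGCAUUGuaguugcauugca
hsa-miR-210-3p: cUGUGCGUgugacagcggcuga
No seed was shared among these 3. The labels give no arm for miR-210 and miR-33a, so the arms shown, which are usually the abundant ones, are an assumption, and miR-451 is named only.

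FOS, the AP-1 subunit that is the classic marker of a recent stimulus, had a scaled signal of 1269.9 with 4 miRNAs, 1037 with 2 miRNAs, 1000.1 in the day 7 control and 651 in the day 5 control. Its single probe set was lowest in the day 5 control, and its range over the 4 arrays, 0.93 on the log2 scale, was the widest of the 9 genes. The 4-miRNA and 2-miRNA arrays differed by 0.28, more than the probe set SD, and the day 7 and day 5 controls by 0.59, again more than that SD. The 2-miRNA array and the day 7 control, next to each other in the order, differed by 0.05, within the SD of 0.52 for that pair. In a culture, fewer cells expressing a gene and less RNA per cell cannot be told apart.

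FOSB, the close relative of FOS, gave 15.1 with 4 miRNAs, 24.0 with 2 miRNAs, 6.98 in the day 7 control and 13.8 in the day 5 control. All 4 values lay far under the array medians, which were between 81.6 and 99.3, so no fold is given for FOSB.

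JUN, the partner of FOS in AP-1, had 4 probe sets that did not behave alike. The highest one, 201464_x_at, gave 4180.2 with 4 miRNAs, 3639.5 with 2 miRNAs, 5086 in the day 7 control and 4211.5 in the day 5 control. By this probe set the 4-miRNA array and the day 5 control were level, with a difference of -0.01. The probe set 201466_s_at gave 3339, 2713, 1032 and 939 with 4 miRNAs, with 2 miRNAs, on day 7 and on day 5. It was thus higher on both miRNA arrays, by 1.80 with 4 miRNAs and 1.50 with 2 miRNAs against the day 5 control. The probe set 213281_at gave 483 with 4 miRNAs, 261 with 2 miRNAs, 182 in the day 7 control and 222 in the day 5 control, which is a log2 difference of 1.02 between the 4-miRNA array and the day 5 control. The fourth, 201465_s_at, lay between 574 and 646 on all 4 arrays. Whether JUN was higher with miRNAs therefore rested on the probe set read, and the letters x and s in a probe set name mark designs that can also match other transcripts.

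JUNB, which also pairs with FOS but is a weaker activator than JUN, gave 648 with 4 miRNAs, 473 with 2 miRNAs, 591 in the day 7 control and 777 in the day 5 control. It was highest in the day 5 control, the reverse of FOS, whose lowest value was there. Its difference from the day 5 control was -0.25 with 4 miRNAs, within the probe set SD, and -0.68 with 2 miRNAs and -0.38 on day 7, both beyond it.

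ATF3, a stress-induced partner of JUN proteins that often represses, gave 407 with 4 miRNAs, 324 with 2 miRNAs, 285 in the day 7 control and 355 in the day 5 control by its highest probe set. Of the comparisons, 4 miRNAs against 2 (0.30) and day 7 against day 5 (-0.29) differed beyond the probe set SD, while neighbours by level, such as 4 miRNAs and the day 5 control, did not. A second ATF3 probe set, 1554980_a_at, was highest on day 7, at 250.1 against 189.9 in the day 5 control. The dimmest, 1554420_at, was highest in the day 5 control at 245, and with 2 miRNAs, at 85.2, it lay under that array's median, at least 2.81-fold below the day 5 control.

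EGR1, which drives growth and repair genes from GC-rich sites, was almost level by its highest probe set. That probe set gave 3671 with 4 miRNAs, 3117 with 2 miRNAs, 3648 in the day 7 control and 3789 in the day 5 control. The range of 0.28 on the log2 scale was the narrowest of the 9 genes. A second probe set, 201694_s_at, gave 1858 with 4 miRNAs, against 1375 with 2 miRNAs and about equal control values of 1249 on day 7 and 1251 on day 5. The dimmest, 201693_s_at, was highest in the day 5 control, at 101 with 4 miRNAs and 95.9 with 2 miRNAs, against 142 on day 7 and 253 on day 5.

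KLF6, a Krüppel-like factor and reported tumour suppressor, gave 3362 with 4 miRNAs, 2686 with 2 miRNAs, 2158 in the day 7 control and 1904 in the day 5 control. FOS and KLF6 were the 2 members with this order of arrays, which 6.56% of all expressed genes had. The 5 KLF6 probe sets spread from -0.45 to 1.28 for 4 miRNAs against the day 5 control and reached 1.04 for 2 miRNAs. The bright 224606_at was highest in that spread, at 2619.6 with 4 miRNAs and 2215 with 2 miRNAs, against 1060.1 in the day 5 control. The dim 211610_at was lowest, at 148 with 4 miRNAs and 67.6 with 2 miRNAs, against 214 in the day 5 control, and with 2 miRNAs it lay under the median, so there it was below that control by at least 2.46-fold.

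IER2 gave 5819 with 4 miRNAs, 4714 with 2 miRNAs, 6177 in the day 7 control and 5049.7 in the day 5 control. IER3 gave 14485.5, 11797.5, 13731 and 11453.5 with 4 miRNAs, with 2 miRNAs, on day 7 and on day 5, between percentiles 98.5 and 98.8 of the probe sets on each array. Both genes were lower with 2 miRNAs than with 4 miRNAs and lower on day 5 than on day 7 among controls. Between 4 and 2 miRNAs the difference was 0.30 for each, beyond the probe set SD of 0.18. Between day 7 and day 5 it was 0.29 for IER2, beyond the SD of 0.27, and 0.26 for IER3, within it. Neighbours by level, such as day 7 and 4 miRNAs, differed by less than their SD for both genes.

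DUSP1, the inhibitor in the set, gave 546 with 4 miRNAs, 487 with 2 miRNAs, 599.5 in the day 7 control and 494 in the day 5 control. Its range of 0.28 was about as narrow as that of EGR1. The dimmer probe set 226578_s_at gave 142 on each miRNA array, 319 on day 7 and 217 on day 5, so it also was highest in the day 7 control. The remaining probe set, 201044_x_at, was under the median on all 4 arrays, with values between 8.65 and 28.8.

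**Figure D1:**
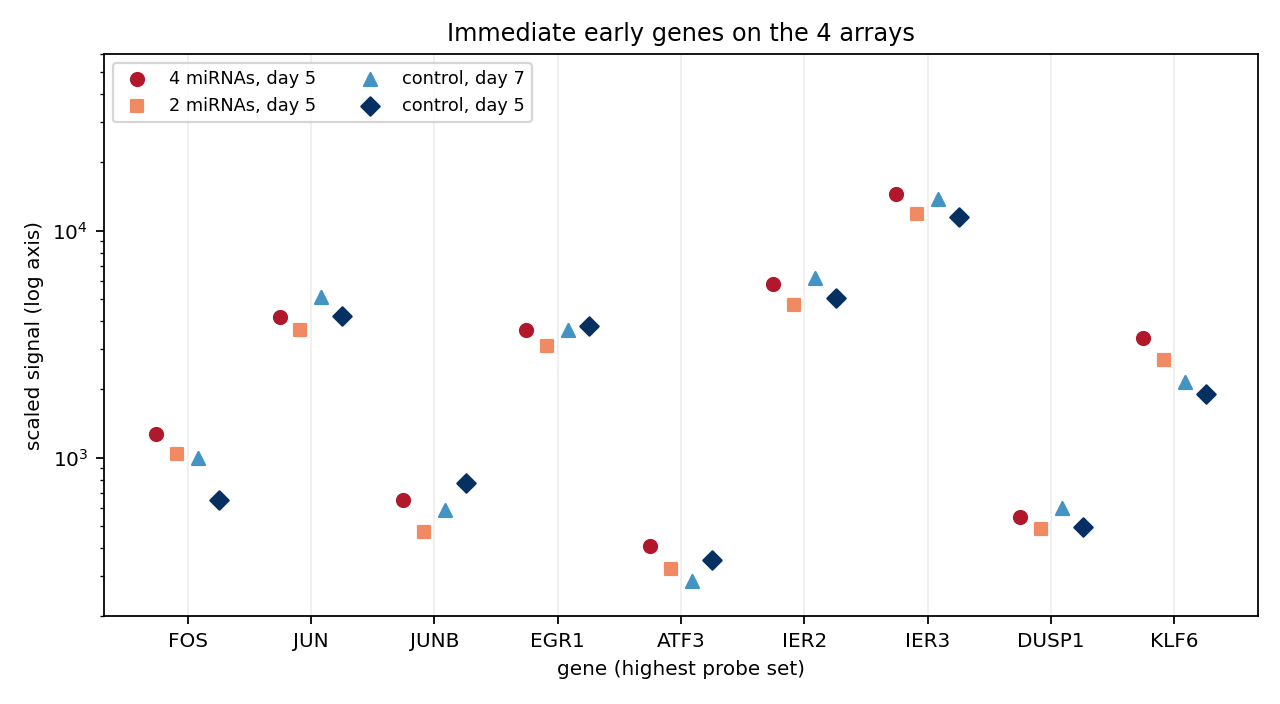
Scaled signal (log axis) of the highest probe set of each of 9 immediate early genes on the 4 arrays, with 1 point per array and no error bars because each group has 1 array. FOS was at 1269.9 with 4 miRNAs, against 651 in the day 5 control, while EGR1 and DUSP1 were nearly level by these probe sets.

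The 4-miRNA array was set against the 2-miRNA array, with 1 array per group. The 4-miRNA group received miR-33a and miR-210 besides the 2 miRNAs that both groups received. If 15 pmol was the amount of the mixture, it may also have received less of those shared miRNAs. A difference in this pair therefore cannot be assigned to the added miRNAs alone, and their part was not tested. All 9 expressed members were higher with 4 miRNAs, where 50.8% of all expressed genes were. The smallest difference was 0.16, for DUSP1, and the largest 0.43, for JUNB. FOS was at 0.28, JUN at 0.20, EGR1 at 0.23, IER3, ATF3 and IER2 at 0.30 and KLF6 at 0.32. The median was 0.30, against 0.00 over all genes. The members and this comparison were chosen with earlier results of the same arrays known, so this median is not independent of those results.

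The kept probe sets were also read in this pair. They include those that stand for the 9 genes, and the others read the same genes on the same arrays. Their count is therefore not independent of that of the genes. Of the 21 kept probe sets, 20 lay above 0, where 48.4% of all kept probe sets did, and their median was 0.30. The exception was JUN 201465_s_at at -0.03, and DUSP1 226578_s_at was level, at 0.001. All 5 KLF6 probe sets, 4 of them from 0.24 to 0.45 and the dim 211610_at by at least 1.70-fold, and all 3 probe sets of ATF3, from 0.30 to 0.43, were higher with 4 miRNAs. Of the 9 genes, 8 were higher by more than the probe set SD of 0.18, DUSP1 being the exception, where 25.9% of all genes were. ATF3, and part of all genes, were dimmer than the probe sets that gave this SD, so it may not hold for them. No member was 2-fold apart, and 2.37% of all genes were; nor was any of the 21 probe sets, and 2.57% of all kept probe sets were. The differences were small: JUNB was 1.37-fold and DUSP1 1.12-fold the 2-miRNA array in scaled signal.

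**Figure D2:**
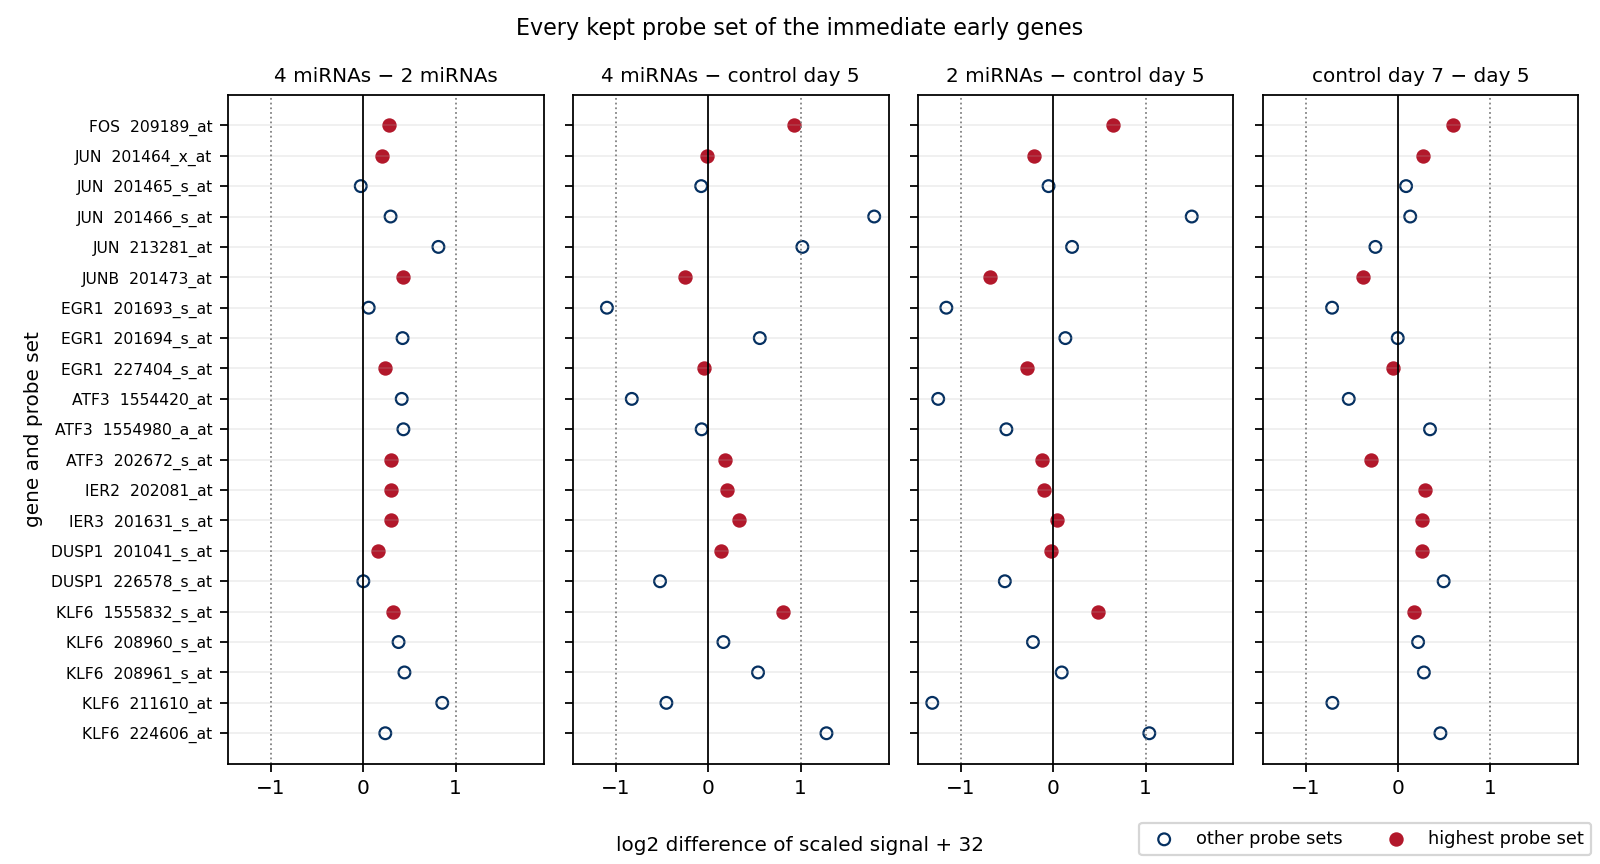
Log2 differences of scaled signal plus 32 for each of the 21 kept probe sets in the 4 comparisons, filled for the highest probe set of a gene and open for the others, with dotted lines at 2-fold. In the pair of miRNA arrays 20 of 21 points lie right of 0, while for 4 miRNAs against the day 5 control those of JUN run from -0.08 to 1.80; with 2 miRNAs the points of ATF3 1554420_at and KLF6 211610_at rest on signals under the array median.

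Against the day 5 control, the 4-miRNA array had 6 of 9 members above 0, where 41% of all genes were, and a median of 0.18, against -0.15 over all genes. FOS (0.93) and KLF6 (0.81) lay beyond the probe set SD of 0.58, a size that 16.8% of all genes passed on the higher side. IER3 (0.34), IER2 (0.20), ATF3 (0.18) and DUSP1 (0.14) were above 0 and EGR1 (-0.05), JUN (-0.01) and JUNB (-0.25) below it, all within that SD. No gene of the 9 was 2-fold apart by its highest probe set, and 14.7% of all genes were. With running-median centring, which removes a shift that depends on signal, FOS reached 1.02 and 8 of 9 members were above 0. Among the 21 probe sets, 12 were above 0, where 43.2% of all kept probe sets were. Of the 21, 3 were at least 2-fold higher, from JUN and KLF6, and 1 at least 2-fold lower, from EGR1, where 8.65% and 6.21% of all kept probe sets were.

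The 2-miRNA array had 3 of 9 members above the day 5 control, where 40.6% of all genes were, and a median of -0.10, against -0.16 over all genes. FOS (0.65) and KLF6 (0.49) were the largest and JUNB (-0.68) the smallest, and FOS (higher) and JUNB (lower) lay beyond the probe set SD, 2 of 9, where 39.4% of all genes lay beyond it in either direction. The count above 0 was 5 with running-median centring. No member was 2-fold apart, and 14.5% of all genes were. Of the 21 probe sets, 8 were above 0, where 43.9% of all kept probe sets were. Of the 21, 2, from JUN and KLF6, were higher by 2-fold or more and 3 lower by as much, where 9.24% and 5.89% of all kept probe sets were. The 3 lower ones were the dimmest probe sets of EGR1, ATF3 and KLF6, with signals between 67.6 and 95.9 with 2 miRNAs.

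Of the 9 members, 4 had their highest value with 4 miRNAs (FOS, ATF3, IER3 and KLF6), as did 16.5% of all expressed genes. Their lowest value was with 2 miRNAs for 5 (JUN, JUNB, EGR1, IER2 and DUSP1), as for 30.3% of all genes. These 2 counts were chosen after the values were seen. All 9 members were higher with 4 miRNAs than with 2, so the counts in part restate that result. The shares of all genes also include genes that were lower with 4 miRNAs than with 2, so they are not a like background. The step to the next array was beyond its probe set SD for FOS, KLF6 and JUN and within it for the others. For IER3 this step was 0.08, against an SD of 0.51.

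**Figure D3:**
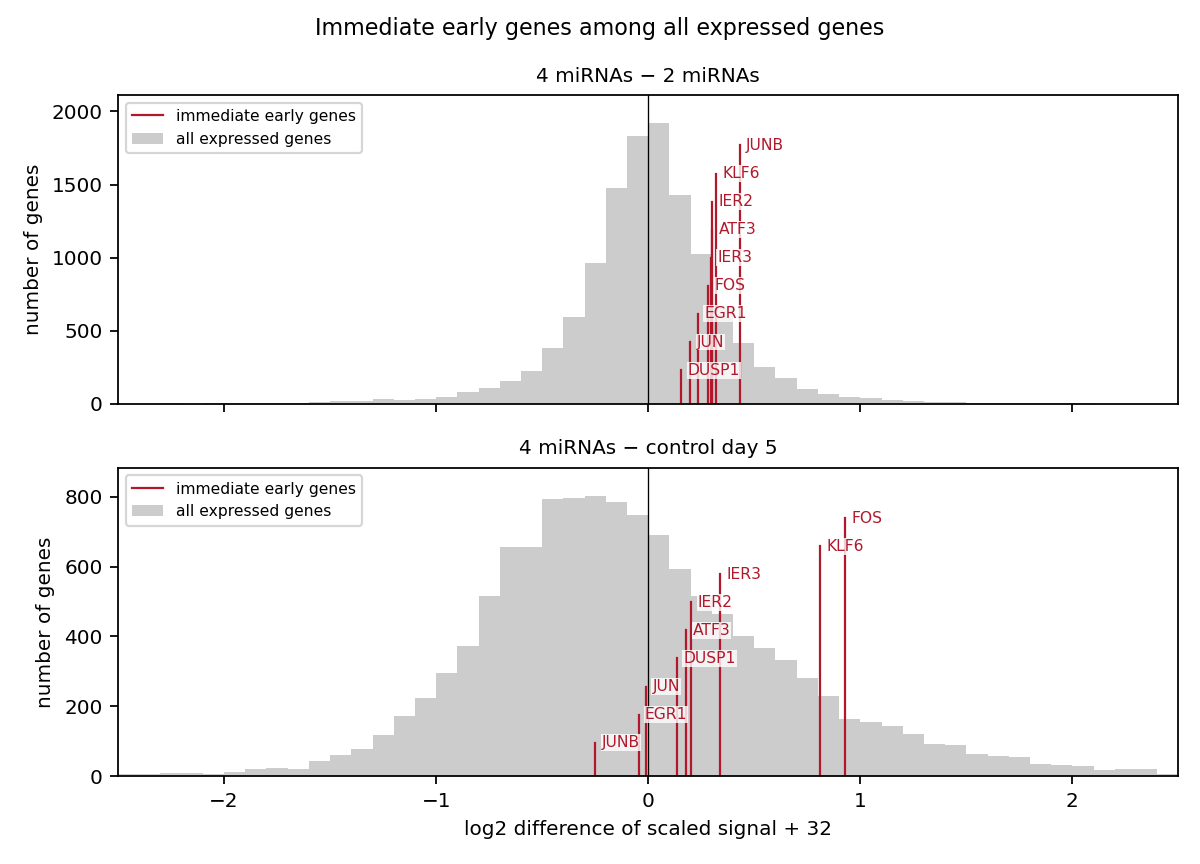
Number of expressed genes by log2 difference (grey bars, 0.1 wide, shown from -2.5 to 2.5) for the 4-miRNA array minus the 2-miRNA array (top) and minus the day 5 control (bottom), with the 9 immediate early genes as red lines whose heights carry no value. In the top panel the 9 genes sit between 0.16 and 0.43, and in the bottom panel between -0.25 and 0.93.

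Control cells of day 7 and day 5 were compared to see what accompanied further time on the filter. Of the 9 members, 6 were higher on day 7, where 49.3% of all genes were, and the median was 0.26, against -0.01 over all genes. FOS (0.59), IER2 (0.29) and JUN (0.27) were higher and JUNB (-0.38) and ATF3 (-0.29) lower by more than the probe set SD of 0.27. IER3 and DUSP1, both at 0.26, KLF6 at 0.18 and EGR1 at -0.05 were within it. Beyond that SD were thus 5 of 9, where 49.9% of all genes lay beyond it in either direction. JUN passed it narrowly, at 0.270 against 0.268, and its other probe sets were at 0.13, 0.09 and -0.24. The other ATF3 probe sets were at 0.35 and -0.53, so they differed in direction. No member was 2-fold apart, and 5.76% of all genes were. Of the 21 probe sets, 13 were above 0 and none 2-fold apart, against 50% and 6.75% of all kept probe sets. This comparison shares the day 5 control with those of the miRNA arrays, so FOS high and JUNB low in all 3 of them rest in part on the same array.

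The genes around the members were read from lists of the pathway. Among ligands of the EGF receptor, EREG (epiregulin) gave 1844 with 4 miRNAs and 2304 with 2, against 595 on day 7 and 590.3 on day 5. It was thus 1.59 and 1.91 above the day 5 control with 4 and 2 miRNAs by this probe set. Its dim second one lay under the array median with 4 miRNAs, at least 1.39-fold below the day 5 control, and was at 0.19 with 2 miRNAs. BTC (betacellulin) was 1.36 and 1.62 above it on these arrays, and its other probe set differed by 0.17 and 0.51. The other 2 expressed ligands, TGFA and HBEGF, were within 2-fold, as were all 14 expressed genes of the receptor and ERK cascade list, by their brightest probe set, EGFR (-0.09 with 4 miRNAs, -0.14 with 2 miRNAs) and MAPK3 (-0.10 and 0.02) included. Of 7 EGFR probe sets, 3 dim ones lay under the median with 2 miRNAs, 1 of them at least 3.73-fold below the day 5 control. Of 7 expressed stress kinases, MAP3K5 was past 2-fold, at 1.36 with 4 miRNAs and 1.85 with 2 miRNAs, but its other probe set was at -0.34 and -0.50. Of all expressed genes, 14.7% with 4 miRNAs and 14.5% with 2 miRNAs were at least 2-fold apart from the day 5 control.

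SRF, the factor that binds the CArG box, stood apart with 2 miRNAs by its brighter probe set. That probe set gave 313 with 4 miRNAs and 138 with 2 miRNAs, against 331 on day 7 and 309 on day 5. SRF was thus 1.02 higher with 4 miRNAs than with 2. It was the 1 gene of the 9 expressed promoter factors past 2-fold in that pair, where 2.37% of all genes were. The dimmer SRF probe set differed by 0.22 in that pair. Against the day 5 control, where the dimmer one lay under the median, 2 miRNAs were at -1.01 by the brighter probe set and at least 1.01-fold higher by the dimmer. ELK1 gave 619 with 4 miRNAs and 478 with 2 miRNAs, against 754 on day 7 and 979 on day 5, a log2 difference from day 5 of -0.64 and -0.99, and its dimmer probe set was at -0.09 and -0.48. Of the 9 promoter factors, 8 were above 0 for 4 miRNAs minus 2 miRNAs, where 50.8% of all genes were. The median of the 9 was 0.11. Against the day 5 control, ELK3, a related factor that can repress, was at 1.24 with 4 miRNAs and 1.15 with 2 miRNAs, and CREB1 at 1.22 and 0.98, although the 7 CREB1 probe sets ran from -0.57 to 1.57 with 4 miRNAs.

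Of the other AP-1 genes, 7 of 9 were expressed. FOSL1 (FRA1) gave 189.98 with 4 miRNAs, 319 with 2 miRNAs, 246 on day 7 and 429 on day 5. Its order thus had the day 5 control at the top, where FOS had it at the bottom. By its brightest probe set JUND gave 5622, 5207, 4378 and 3171 with 4 miRNAs, with 2 miRNAs, on day 7 and on day 5. FOS and KLF6 had this order by their brightest probe sets. A dim JUND probe set was below the day 5 control instead, by log2 differences of -0.19 with 4 miRNAs, -0.87 with 2 miRNAs and -0.20 on day 7. The third JUND probe set, also dim, lay under the array median in the day 5 control and with 2 miRNAs. It was above that control by at least 1.49-fold with 4 miRNAs and 1.93-fold on day 7, where it was highest. FOSL2 was higher than in the day 5 control by 0.78 with 4 miRNAs, 0.27 with 2 miRNAs and 0.64 on day 7. JDP2, a repressor that dimerises with JUN, was under the median in the day 5 control and above it by at least 2.84-fold with 4 miRNAs, 2.89-fold with 2 miRNAs and 2.05-fold on day 7. Its dimmer probe set was at -0.03 with 4 miRNAs, at least 1.53-fold lower with 2 miRNAs and at 0.36 on day 7. ATF2 was at 2.39 and 2.42 against the day 5 control on the 4-miRNA and 2-miRNA arrays by its brighter probe set, and at -0.11 and 0.20 by the other.

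**Figure D4:**
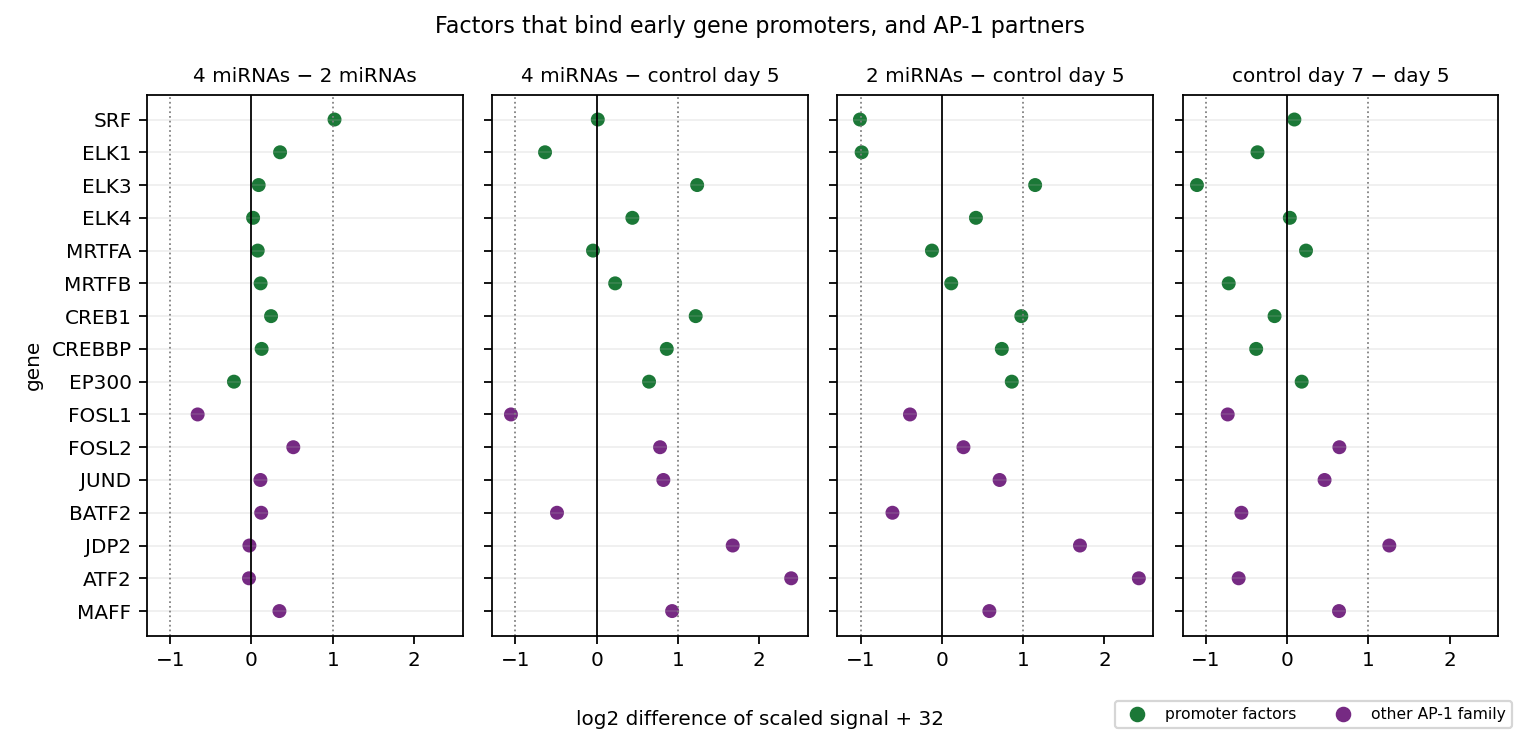
Log2 differences of scaled signal plus 32 in the 4 comparisons for 9 expressed factors that act at early gene promoters (green) and 7 other AP-1 family genes (purple), by the highest probe set, with dotted lines at 2-fold. SRF is at 1.02 in the pair of miRNA arrays, and FOSL1 lies left of 0 in all 4 panels.

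Other early genes and inhibitors of the pathway did not all move in the same direction. Of 21 expressed early genes outside the 10, 13 were above 0 for 4 miRNAs minus 2 miRNAs, where 50.8% of all genes were. The median of the 21 was 0.14, and 0 of them were at least 2-fold apart, where 2.37% of all genes were. MYC gave 8080 with 4 miRNAs and 6865 with 2 miRNAs, against 11583 on day 7 and 15161 on day 5. Its log2 difference from the day 5 control was thus -0.91 with 4 miRNAs and -1.14 with 2. KLF10, a relative of KLF6, was 1.37 above the day 5 control with 4 miRNAs and 1.22 with 2 miRNAs, and ZFP36L1, which promotes decay of AU-rich messages, 1.61 and 1.58. NR4A1, an orphan nuclear receptor, was under the median with 2 miRNAs, where it lay at least 3.37-fold below the day 5 control. Of 16 expressed feedback inhibitors, 12 were above 0 for 4 miRNAs minus 2 miRNAs, against the same 50.8%, with a median of 0.13. SPRED1, which restrains RAS to RAF signalling, was 1.91 and 1.98 above the day 5 control with 4 and 2 miRNAs by its brightest probe set, while its others were at 0.94 and 0.72 and at -0.39 and 0.07. DUSP7 (-1.30 and -1.12) and NAB2, a corepressor of EGR1 (at least 4.31-fold lower with 4 miRNAs, -1.25 with 2), were below it.

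Genes reported as targets of AP-1 or EGR1 were likewise mixed. Of 12 expressed, 8 were above 0 for 4 miRNAs minus 2 miRNAs, where 50.8% of all genes were. The median of the 12 was 0.10, and none of them was at least 2-fold apart, where 2.37% of all genes were. VEGFA was past 2-fold against the day 5 control, at 1.73 with 4 miRNAs and 1.57 with 2 miRNAs, by the brightest of 4 probe sets, and the others lay between -0.14 and 0.47 with 4 miRNAs. The matrix protease MMP9 was at -1.09 with 4 miRNAs and -0.32 with 2 miRNAs. Of 7 expressed genes of the ATF4 pathway, which raises ATF3 under stress, 6 were above 0 for 4 miRNAs minus 2 miRNAs. Of all genes 50.8% were, and the median of the 7 was 0.25. DDIT3 (CHOP) was higher on day 7 than on day 5, by 1.07.

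The expressed genes outside the 10 whose log2 signals by the brightest probe set, centred over the 4 arrays, lay nearest to those of FOS were BCO1 (Euclidean distance 0.009), MAFF (0.075), ZBTB34 (0.077), ADAM17 (0.078) and IL1R2 (0.10). Within a distance of 0.5 lay 1401 of 12255 genes. MAFF, a small MAF protein also in the AP-1 list, gave 1322 with 4 miRNAs, 1035 with 2 miRNAs, 1076 on day 7 and 679.6 on day 5. Its dimmer probe set gave 238, 255, 355 and 175 in that order, so it was highest on day 7. The dimmer IL1R2 probe set was also highest on day 7, at 939. Of 3 ADAM17 probe sets, the dimmest was at -0.48 with 4 miRNAs against the day 5 control. With 2 miRNAs and on day 7 it lay under the array median, at least 2.43-fold and 2.14-fold below that control.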

How the data were processed

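The deposited intensities, 1 per probe set and array on Affymetrix U133 Plus 2.0, are MAS5 signals, per the submitters' processing notes. The MAS5 version and target were not found in any source used here. A factor (3.33 for 4 miRNAs, 3.39 for 2 miRNAs, 6.73 for day 7 and 6.53 for day 5) brought the mean of each array, less the lowest and highest 2% of its probe sets, to 500. Adding 32 before log2 understates folds of dim genes. Kept were probe sets with a mean log2 at or above the median of those means, or at or above percentile 75 on some array. Symbols came from the platform annotation, updated by gene ID through RefSeq; 41097 probe sets had 1 symbol, 1801 several and 11777 none here. Genes without a probe set of their own there were not analysed here.

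The probe set SD is the SD of the gap between log2 differences of the 2 brightest probe sets of a gene, both with a mean log2 of at least 9, divided by the square root of 2. ATF3 lay below that mean, so the SD may not measure its error. A fold against a signal under its array's median is a lower bound, taken over that median.

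Members, lists and comparisons were chosen with earlier results of these data known. The rule for naming took the members, a short list of pathway genes that includes MAPK3, SRF, ELK1, EGFR, FOSL1, JUND and MYC, up to 4 genes of a list past 2-fold in a comparison, largest first, and the 5 genes nearest to the member of widest range. The text names the larger of these. FOSL2, TGFA and HBEGF were added after their values were seen, to complete a family. Alternatives are given with the limits. Scaling and differences were tested on simulated data. The number of arrays limits the precision. Python 3.11.15, numpy 2.4.6 and pandas 2.3.3 were used.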

Additional observations from a re-analysis of the deposited data

How the results depend on the processing

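Each comparison was recomputed with quantile normalization, running-median centring, a smaller and a larger pseudocount, the median over a gene's kept probe sets, no filter on low signal and a filter at percentile 70. The members' median log2 difference stayed between 0.26 and 0.30 for 4 miRNAs minus 2 miRNAs, between 0.15 and 0.27 for 4 miRNAs minus the day 5 control, between -0.10 and 0.00 for 2 miRNAs minus the day 5 control, and between 0.21 and 0.26 for day 7 minus day 5. The count of members above 0 for 4 miRNAs minus 2 miRNAs was 9 under all 7 alternatives, 9 of 10 with no filter, where FOSB was below 0. It was between 5 and 8 for 4 miRNAs minus the day 5 control and between 3 and 5 for 2 miRNAs minus that control; these counts were added after seeing the data. With running-median centring 1 member, FOS at 1.02, was at least 2-fold apart for 4 miRNAs minus the day 5 control, against 0 otherwise. Of 63 values of single members in each comparison, 5 for 4 miRNAs and 3 for 2 miRNAs against the day 5 control changed sign, 0 in the other 2 comparisons, and none moved by more than the probe set SD. The share of all expressed genes 2-fold apart depended more on these choices: it was 2.37% for 4 miRNAs minus 2 miRNAs, and between 0.342% with the larger pseudocount and 7.11% with no filter. For day 7 minus day 5 it was 5.76%, and between 1.87% and 14.2% under the same settings. With the larger pseudocount it was 8.67% for 4 miRNAs and 8.29% for 2 miRNAs against the day 5 control, where it was 14.7% and 14.5%. No paired analysis was possible because each group has 1 array.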
